A study of Mus musculus with 16 samples.

Results

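Expression of 10 genes of thyroid hormone handling was followed across 16 hippocampal arrays: the deiodinases Dio2 and Dio3, the receptors Thra and Thrb, the transporter genes Slco1c1, Slc7a5, Slc7a8 and Slc3a2, and the hormone-responsive genes Hr and Klf9. They were picked by name out of the 22180 genes on the array that had a probe set with exactly 1 gene symbol, each through its brightest probe set over the 16 arrays. All 10 were measured, with 11 probe sets in all, since Dio2 has 2. The arrays came from 4 groups of 4 mice. Astro-D2KO mice carried floxed Dio2 (D2) together with a glial cre, and control mice carried the same glial cre with wild-type Dio2, so both genotypes bore the cre. In each genotype 1 group had status epilepticus (SE), a prolonged seizure, brought on by pilocarpine at 65 mg/kg, and 1 group was given saline. Every mouse, saline groups included, had lithium chloride at 10 mEq/kg 18 h earlier, was of the C57BL/6 strain and was 8 to 10 weeks old. The sources used here do not give the promoter that drives the cre or the time between injection and dissection. The labels do not state the sex of the mice. Group means of Xist, the RNA of the inactive X chromosome, were 4.12 to 4.18, and those of the Y-linked genes Uty, Kdm5d and Eif2s3y were 7.69 to 8.11, 6.66 to 7.23 and 8.09 to 8.41 (log2). The study set out to ask whether SE alters thyroid hormone metabolism or action in the brain. All SE mice had pilocarpine and no saline mouse did, so what the drug did and what the seizures did cannot be told apart.

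The thyroid releases mostly thyroxine (T4), a prohormone. Astrocytes take up T4 and the type 2 deiodinase, the product of Dio2, removes an outer-ring iodine to give the active hormone T3. T3 then passes to neurons, which hold the type 3 deiodinase (Dio3) that inactivates T4 and T3. The hormones cross membranes through carriers such as OATP1C1 (Slco1c1), which favours T4, and the amino acid exchangers LAT1 (Slc7a5) and LAT2 (Slc7a8), each of which works as a dimer with the heavy chain CD98 (Slc3a2). In the nucleus T3 binds the receptors TRα (Thra) and TRβ (Thrb), which pair with retinoid X receptors, and raises genes such as Klf9, a Krüppel-like transcription factor, and Hr, a corepressor called hairless. Dio2 itself is known to be switched on by cyclic AMP and to be held down by T4 and T3.

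The promoters of the 4 genes that carry most of what follows are shown, Dio2 because it is the targeted gene and the others because their levels were higher after SE. Each is the 250 bases before the transcription start, from RefSeq on GRCm38.p6, written 5′ to 3′ on the gene's strand. Dio2 lies on the minus strand at chr12:90739039-90739288, Klf9 on the plus strand at chr19:23140976-23141225, Slc7a8 on the minus strand at chr14:54781887-54782136 and Slc3a2 on the minus strand at chr19:8713898-8714147. Capitals mark a full cyclic AMP response element (TGACGTCA) in Dio2 and an AP-1 element (TGANTCA) in Klf9.
Dio2: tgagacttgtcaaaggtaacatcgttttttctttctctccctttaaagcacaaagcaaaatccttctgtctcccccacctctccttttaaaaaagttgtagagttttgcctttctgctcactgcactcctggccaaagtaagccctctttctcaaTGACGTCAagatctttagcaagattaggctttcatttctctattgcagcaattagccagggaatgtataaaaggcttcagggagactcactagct
Klf9: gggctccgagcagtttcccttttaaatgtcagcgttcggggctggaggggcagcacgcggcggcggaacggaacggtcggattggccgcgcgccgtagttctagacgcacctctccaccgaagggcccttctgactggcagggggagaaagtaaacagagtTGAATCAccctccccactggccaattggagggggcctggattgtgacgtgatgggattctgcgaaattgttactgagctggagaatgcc
Slc7a8: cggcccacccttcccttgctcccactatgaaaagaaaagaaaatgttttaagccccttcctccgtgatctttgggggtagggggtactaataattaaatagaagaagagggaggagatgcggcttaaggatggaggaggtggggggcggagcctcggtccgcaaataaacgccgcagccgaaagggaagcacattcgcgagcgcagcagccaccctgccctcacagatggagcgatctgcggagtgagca
Slc3a2: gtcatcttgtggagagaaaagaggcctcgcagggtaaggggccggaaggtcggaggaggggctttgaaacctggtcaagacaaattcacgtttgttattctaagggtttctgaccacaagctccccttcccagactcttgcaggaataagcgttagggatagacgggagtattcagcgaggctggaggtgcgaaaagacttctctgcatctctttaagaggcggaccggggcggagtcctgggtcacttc
Both strands were searched for 6 words. These were the full element TGACGTCA, the shorter word TGACG that begins it, the AP-1 word TGANTCA, the nuclear receptor word AGGTCA, the ATF4 word TGATGNAA and the steroid receptor word AGAACA. The Dio2 element begins 95 bases before the start, and 1.55% of the 32851 RefSeq promoters hold that word within the same length. TGACG is part of it, so its matches in Dio2 overlap it. In Klf9 the AP-1 word begins 89 bases before the start, with TGANTCA in 6.75% of promoters, and a separate TGACG begins 46 bases before it, with TGACG in 17.8%. Slc7a8 and Slc3a2 held none of the 6 in this window. Promoters were found for 7 of the members, 8 promoters in all, and not for Thra, Slc7a5 and Hr. Of those not shown, Dio3 and Slco1c1 held none of the 6 words. Thrb had AGGTCA 184 bases and TGACG 56 bases before its first start. Before its other start it had AGAACA at 7 bases and, on the opposite strand, at 23 bases. AGGTCA is found in 14% of promoters and AGAACA in 16.1%. A match is a description of the letters.

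The dissections carried the markers of hippocampus and of its cell types, and differed in how much choroid plexus RNA they held. All 12 astrocyte markers, 9 of 9 neuron markers and 7 of 7 oligodendrocyte markers lay above the median gene, as did 9 of 10 hippocampus markers. So did 10 of 12 endothelial, 7 of 8 microglia, 4 of 7 tanycyte and ependyma and 2 of 7 choroid plexus markers. None of the 3 blood cell markers did. Gene levels correlated between arrays with r from 0.972 to 0.994 across genes. The mean of the 7 choroid plexus markers was far higher on 1 array of each group: 7.92 on Astro-D2KO SE replicate 4, 7.71 on Astro-D2KO saline replicate 3, 7.51 on control SE replicate 1 and 8.20 on control saline replicate 3 (log2). The other arrays lay between 6.02 and 6.82. An array holds the RNA of many cells, so fewer cells of a type and less RNA per cell cannot be told apart. The labels number the mice of a group and say nothing of litters or batches. The p-values set differences against the spread between these mice, which may hold unlabelled differences of litter or batch. In limma that spread is shared by the 4 groups.

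Dio2 had the largest genotype difference of the 10 members, lower in Astro-D2KO mice, and its mean was above that of saline mice after SE in both genotypes without passing the test. Under saline its level (RMA, log2 scale) was 6.75, 6.52, 7.09 and 6.77 in Astro-D2KO mice, replicates 1 to 4, against 7.87, 8.25, 8.17 and 8.28 in control mice. The groups did not overlap. The mean was 6.78 ± 0.23 in Astro-D2KO mice and 8.14 ± 0.19 in control mice (SD, n = 4 each), 2.57-fold lower in Astro-D2KO mice, a difference of -1.36 ± 0.35 (log2, standard error from limma). An exact two-sided permutation test gave p = 0.0286, the smallest that 4 arrays against 4 can give. In the fit over all genes Dio2 ranked 9th of 22180 by p but its Benjamini-Hochberg adjusted p from limma was 0.999. The standard error of 0.35 rests on a spread shared with the SE arrays. There the Dio2 SD was 0.91 in Astro-D2KO mice and 0.67 in control mice. Fitted on the saline arrays alone, the standard error was 0.13 and the limma adjusted p was 0.0150. Dio2 was then the 1 gene that limma called.

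After SE the Dio2 level was 8.91, 7.03, 7.17 and 7.12 in Astro-D2KO mice, replicates 1 to 4, and 9.51, 9.11, 9.24 and 7.99 in control mice. The groups overlapped through 1 array on each side. Replicate 1 of the arrays labelled Astro-D2KO SE had 8.91, where the next highest of its group had 7.17, which goes against its label. Whether an array or a label was exchanged cannot be settled from these files, and the array is kept under its label in every result. Replicate 4 of the control SE arrays, at 7.99, was below the 9.11 to 9.51 of the rest of its group and among the levels of saline-treated control mice. The mean was 7.56 ± 0.91 in Astro-D2KO mice and 8.96 ± 0.67 in control mice (SD, n = 4 each), 2.66-fold lower, with a difference of -1.41 ± 0.35, an exact permutation p of 0.0571 and an adjusted p of 0.532 by limma. Without both of those arrays the difference was -2.18. They were chosen for their Dio2 levels with earlier results known, and leaving them out widens this difference by construction, so Dio2 values without either of them are descriptions and test nothing. Without only the array labelled Astro-D2KO SE replicate 1 the difference was -1.86. Its limma adjusted p of 0.0262 is likewise no test, since that array was chosen for its Dio2 level.

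Over both treatments, Dio2 had the smallest p of all 22180 genes for genotype, with a difference of -1.39 ± 0.25 (2.61-fold lower in Astro-D2KO mice) and a limma adjusted p of 0.612. This average was added after the data were seen. Permuting genotype within each treatment gave an exact p of 0.00122 over 4900 arrangements. Without both arrays the difference was -1.77, and without the array labelled Astro-D2KO SE replicate 1 alone it was -1.61. This probe set had a mean of 7.86 over the arrays, brighter than 83.1% of all probe sets. The sources used here do not say if it covers the floxed part, so how far its level checks the genotype of a mouse is not known.

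**Figure D1:**
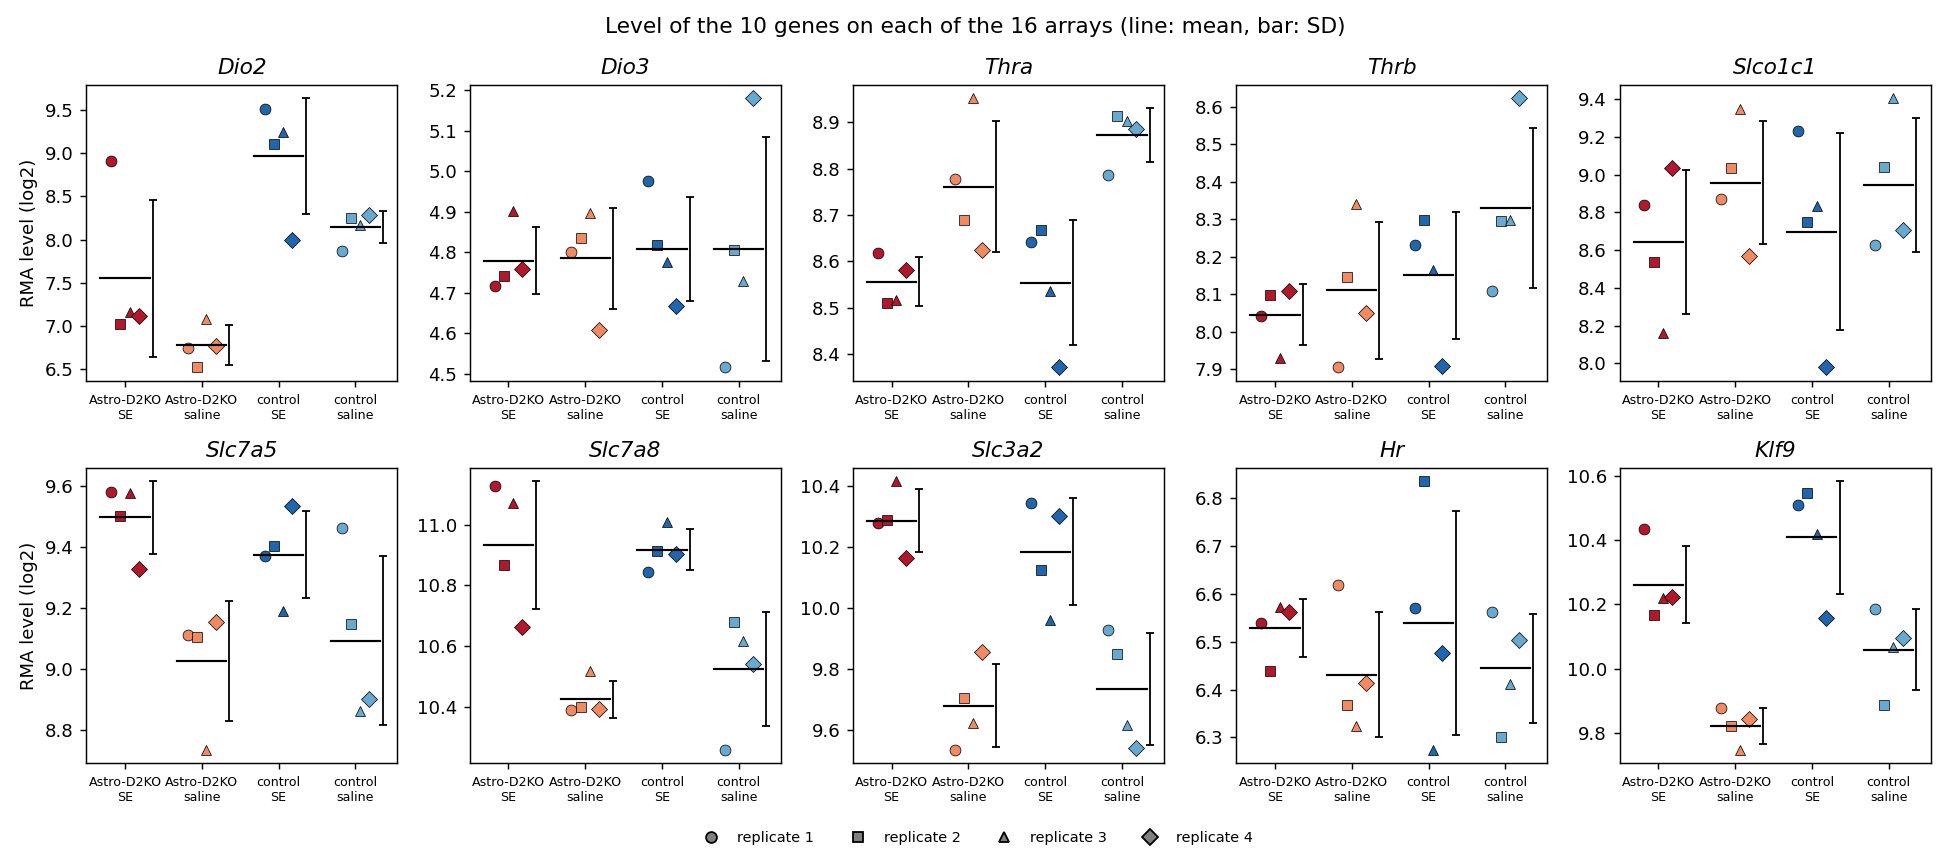
RMA level (log2, vertical axis, a scale of its own for each gene) on each array in the 4 groups, with the line at the mean and the bar 1 SD either side (n = 4). Dio2 is low in Astro-D2KO mice on every array but 1, which is at 8.91, and the means of Slc7a8, Slc3a2 and Klf9 are higher after SE than under saline in both genotypes.

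Dio2 did not pass the test for SE in either genotype. Its SE minus saline difference was 0.77 ± 0.35 in Astro-D2KO mice (1.71-fold, limma adjusted p = 0.138, exact permutation p = 0.0571) and 0.82 ± 0.35 in control mice (1.77-fold, limma adjusted p = 0.105, exact permutation p = 0.114). Permuting treatment within each genotype gave 0.80 with an exact p of 0.00735. The 2 arrays described above weighed on these values in opposite ways. Without both, again as a description, the difference was 0.32 in Astro-D2KO mice and 1.14 in control mice, and the average over genotypes was 0.73. With either array alone left out, the control value was 1.14 without control SE replicate 4 and 0.82 without Astro-D2KO SE replicate 1. Both were past limma's threshold (adjusted p of 0.0180 and 0.0168), which is no test, as the arrays were chosen for their Dio2 levels. Leaving out Astro-D2KO SE replicate 1 did not alter the control value. It cut the standard error from 0.35 to 0.23, since the groups share their spread. The mean of the 12 astrocyte markers spanned 8.73 to 8.79 in Astro-D2KO SE mice and 8.69 to 8.85 in Astro-D2KO saline mice. In control mice it spanned 8.66 to 8.87 after SE and 8.75 to 8.87 under saline. Sox9 rose by 0.59 in Astro-D2KO mice and 0.58 in control mice. Fgfr3 fell by 0.74 and 0.87, and Slc1a2 fell by 0.26 in control mice. The part of astrocytes in the Dio2 values was not tested.

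The array labelled control SE replicate 4 was also the lowest of its group for the immediate early genes. The mean of 12 immediate early genes, switched on within minutes of neuronal firing, was 9.61, 9.65, 9.59 and 9.98 in Astro-D2KO SE mice, replicates 1 to 4, and 6.78, 6.87, 6.70 and 6.97 in Astro-D2KO saline mice. It was 10.16, 9.94, 10.00 and 9.18 in control SE mice and 6.78, 6.71, 6.68 and 6.77 in control saline mice (log2). Every SE array thus lay above every saline array, with control SE replicate 4 the lowest of the SE arrays, while Astro-D2KO SE replicate 1 lay among its group. The part of these differences in the Dio2 values was not tested.

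The other Dio2 probe set, dimmer at a mean of 5.07, behaved otherwise. It read 5.05, 4.77, 4.64 and 4.86 in Astro-D2KO SE mice and 5.28, 4.89, 5.65 and 4.96 in Astro-D2KO saline mice. In control mice it read 4.90, 5.42, 4.73 and 4.77 after SE and 5.01, 5.39, 5.38 and 5.35 under saline. The groups overlapped in each comparison, with genotype differences of -0.12 after SE (exact permutation p = 0.657) and -0.09 under saline (p = 0.686, exact). Its SE difference, permuted within genotypes, was -0.34 (exact p = 0.0196), of the opposite sign to the brighter probe set. With the 2 probe sets averaged, the Dio2 genotype difference was -0.77 after SE and -0.72 under saline. It was brighter than 34.7% of all probe sets, and the part of the gene it covers is likewise not stated.

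The other deiodinases did not pass in any comparison. Dio3 ranged from 4.72 to 4.90 in Astro-D2KO SE mice, 4.61 to 4.90 in Astro-D2KO saline mice, 4.67 to 4.97 in control SE mice and 4.52 to 5.18 in control saline mice. All 4 groups overlapped, and the SE difference was -0.01 in Astro-D2KO mice (95% interval -0.25 to 0.24) and 0.00 in control mice (-0.24 to 0.24). Its probe set was brighter than only 29.4% of probe sets, so a change in a low transcript may not be visible. Dio1, the deiodinase of liver and kidney, differed by 0.04 in Astro-D2KO mice and -0.01 in control mice between SE and saline, and did not pass.

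Slc3a2, Slc7a8 and Klf9 rose after SE in both genotypes, Slc7a5 rose in Astro-D2KO mice and Thra fell in control mice. With SE set against saline, 4 of the 10 members passed in Astro-D2KO mice, all higher, and 4 in control mice, 3 higher and 1 lower (limma, Benjamini-Hochberg adjusted p under 0.05 over 22180 genes). Of all genes, 20.1% passed in Astro-D2KO mice (7.49% higher, 12.6% lower) and 22.1% in control mice (8.42% higher, 13.7% lower). The members' median difference was 0.27 in Astro-D2KO mice and 0.19 in control mice, beside -0.01 and -0.02 over all genes. Of the 73 other genes in 8 lists of the thyroid hormone pathway, 16 passed in Astro-D2KO mice (5 higher, 11 lower, 21.9%) and 18 in control mice (6 higher, 12 lower, 24.7%), near the share of all genes.

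The transporter genes gave most of the rises. Slc3a2, the CD98 heavy chain that carries both LAT exchangers to the membrane, was at 10.28, 10.29, 10.42 and 10.16 in Astro-D2KO SE mice and 9.53, 9.71, 9.62 and 9.85 in Astro-D2KO saline mice. It was at 10.35, 10.13, 9.96 and 10.30 in control SE mice and 9.93, 9.85, 9.62 and 9.54 in control saline mice. The SE and saline arrays did not overlap in either genotype. It rose by 0.61 ± 0.11 in Astro-D2KO mice (1.52-fold, limma adjusted p = 0.000607) and by 0.45 ± 0.11 in control mice (1.37-fold, limma adjusted p = 0.00512). Without the array of each group with the highest choroid plexus markers, an alternative added after the data were seen, the control value was 0.36 and did not pass (limma adjusted p = 0.0727). Slc3a2 also serves amino acid transport and integrin signalling, so its level is not a measure of hormone uptake.

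Slc7a8 (LAT2) stood at 11.13, 10.87, 11.07 and 10.66 in Astro-D2KO SE mice and 10.39, 10.40, 10.52 and 10.39 in Astro-D2KO saline mice. In control mice it stood at 10.85, 10.91, 11.01 and 10.90 after SE and 10.26, 10.68, 10.62 and 10.54 under saline. Every SE array was above every saline array of its genotype. The rise was 0.51 ± 0.10 in Astro-D2KO mice (1.42-fold, limma adjusted p = 0.00204) and 0.39 ± 0.10 in control mice (1.31-fold, limma adjusted p = 0.0107).

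Slc7a5 (LAT1), an exchanger of the blood-brain barrier and of activated cells, read 9.58, 9.50, 9.58 and 9.33 in Astro-D2KO SE mice and 9.11, 9.11, 8.74 and 9.16 in Astro-D2KO saline mice. It read 9.37, 9.40, 9.19 and 9.53 in control SE mice and 9.46, 9.15, 8.86 and 8.90 in control saline mice. The Astro-D2KO groups did not overlap and the control groups did, through control saline replicate 1. The difference was 0.47 ± 0.13 in Astro-D2KO mice (1.39-fold, limma adjusted p = 0.0133) and 0.28 ± 0.13 in control mice (1.21-fold, limma adjusted p = 0.129). Both calls turned on 1 array. Without Astro-D2KO saline replicate 3, the array of that group richest in choroid plexus markers, the Astro-D2KO value was 0.37 with a limma adjusted p of 0.0532. Without control saline replicate 1 the control value was 0.40 with a limma adjusted p of 0.0204. The difference between the genotypes' SE responses was 0.19 (95% interval -0.19 to 0.57), which did not pass.

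Slco1c1, the T4 carrier of brain endothelium, astrocytes and choroid plexus, overlapped between SE and saline in both genotypes. It ranged from 8.16 to 9.03 in Astro-D2KO SE mice and 8.57 to 9.35 in Astro-D2KO saline mice, and from 7.98 to 9.23 in control SE mice and 8.63 to 9.40 in control saline mice. The difference was -0.31 ± 0.24 in Astro-D2KO mice (limma adjusted p = 0.428) and -0.25 ± 0.24 in control mice (0.542). Within each of the 4 groups the array with the most choroid plexus RNA was also the highest for Slco1c1, as the plot of Slco1c1 against choroid plexus markers shows. Without those 4 arrays the difference was -0.31 in Astro-D2KO mice and -0.27 in control mice. Single arrays moved it more: it was -0.15 in Astro-D2KO mice without SE replicate 3, and -0.01 in control mice without SE replicate 4. No choroid plexus marker passed the test for SE in either genotype.

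**Figure D2:**
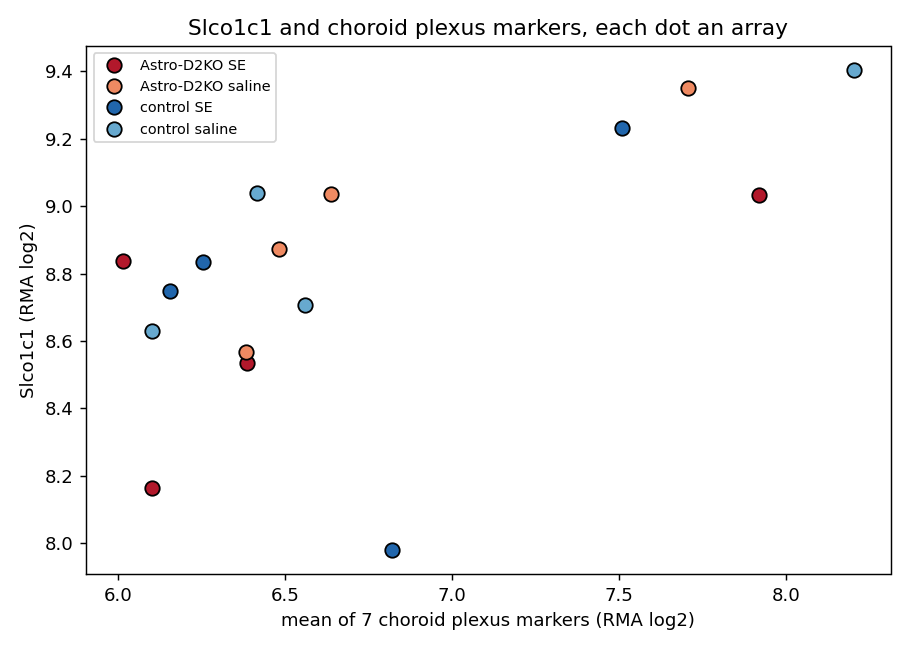
Slco1c1 level (vertical axis, RMA log2) against the mean level of 7 choroid plexus markers (horizontal axis, RMA log2), with 1 dot per array coloured by group. The 4 arrays right of 7 on the horizontal axis, 1 from each group, have Slco1c1 levels of 9.03 to 9.40, the highest of their groups.

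**Figure D3:**
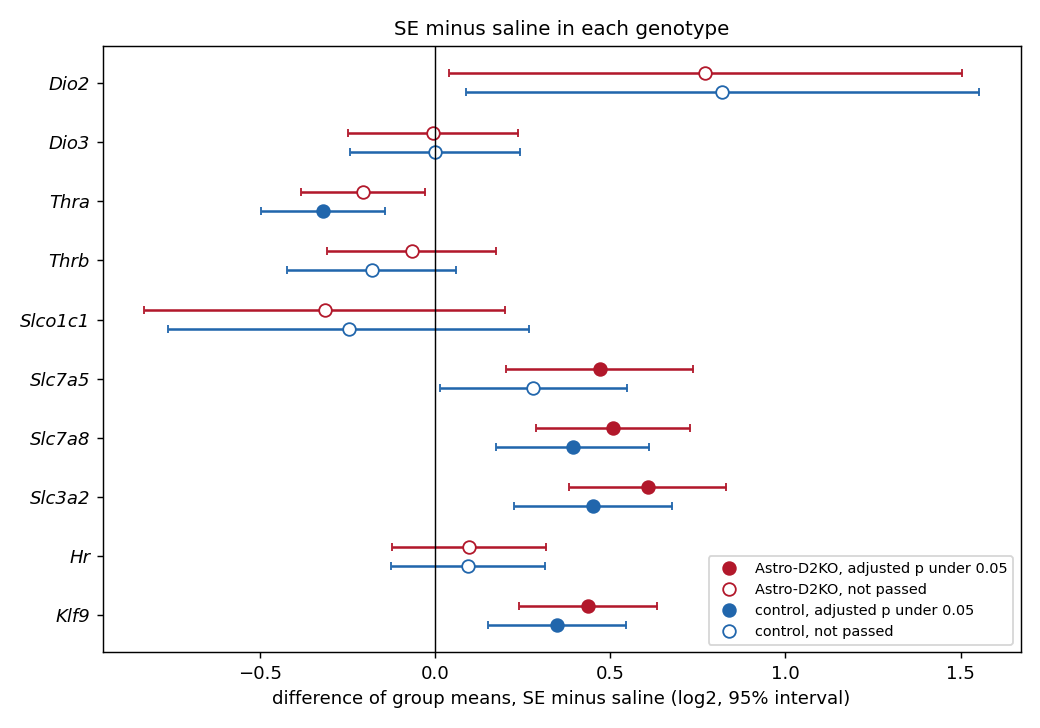
SE minus saline difference of each member (log2, horizontal axis) in Astro-D2KO mice (red, upper of each pair) and control mice (blue), with 95% intervals from limma. Slc7a8, Slc3a2 and Klf9 are filled in both genotypes, Slc7a5 in Astro-D2KO mice and Thra in control mice.

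Among the 14 measured genes of the transporter list, 3 rose and 2 fell in each genotype, the members included. Of the 10 that are not members, 0 rose and 2 fell in Astro-D2KO mice, and 1 rose and 2 fell in control mice. Over all genes, 7.49% rose and 12.6% fell in Astro-D2KO mice, and 8.42% rose and 13.7% fell in control mice. The largest change on the list was in Slco1a4, which encodes a barrier transporter of organic anions that accepts T4 and T3. It was lower after SE by 4.02-fold in Astro-D2KO mice (-2.01 ± 0.21, limma adjusted p = 4.52e-06) and by 4.47-fold in control mice (-2.16 ± 0.21, limma adjusted p = 1.85e-06). Slco2b1, a related carrier, fell by 0.27 in Astro-D2KO mice (limma adjusted p = 0.0404) and by 0.32 in control mice (0.0141). Slco3a1 differed by 0.15 in Astro-D2KO mice (limma adjusted p = 0.199) and rose by 0.28 in control mice (0.0144). Of 12 endothelial markers, 4 rose and 2 fell in each genotype, with Slco1a4 itself among those that fell. Cdh5, the cadherin of endothelial junctions, rose by 1.41 in each genotype, and Slc2a1, the glucose transporter of the barrier, rose by 0.82 in Astro-D2KO mice and 0.66 in control mice. Pecam1 and Flt1 also rose in both, Abcb1a, a drug efflux pump, fell by 0.50 in Astro-D2KO mice and Itm2a fell by 0.64 in control mice. The mean of the 12 endothelial markers, which include Slco1a4, spanned 7.38 to 7.64 in Astro-D2KO SE mice, 7.36 to 7.67 in Astro-D2KO saline mice, 7.37 to 7.65 in control SE mice and 7.48 to 7.73 in control saline mice. The part of the endothelium in the transporter differences was not tested.

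The receptor genes were lower or level after SE. Thra was at 8.62, 8.51, 8.52 and 8.58 in Astro-D2KO SE mice and 8.78, 8.69, 8.95 and 8.63 in Astro-D2KO saline mice. It was at 8.64, 8.67, 8.54 and 8.37 in control SE mice and 8.79, 8.91, 8.90 and 8.89 in control saline mice. Neither pair of groups overlapped. Thra fell by 0.32 ± 0.084 in control mice (1.25-fold lower, limma adjusted p = 0.0106). In Astro-D2KO mice the difference was -0.20 ± 0.084 (limma adjusted p = 0.102) and did not pass, and the difference between genotypes in this response was 0.11 (95% interval -0.14 to 0.36). Thra makes a hormone-binding and a non-binding product, and the files do not say which the probe set reads. Thrb ranged from 7.93 to 8.11 in Astro-D2KO SE mice and 7.90 to 8.34 in Astro-D2KO saline mice, and from 7.91 to 8.30 in control SE mice and 8.11 to 8.62 in control saline mice. The groups overlapped, with differences of -0.07 in Astro-D2KO mice and -0.18 in control mice (limma adjusted p = 0.761 and 0.303).

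Of the 18 measured genes of receptors, retinoid X receptor partners and coregulators, 2 fell in Astro-D2KO mice and 4 fell in control mice, Thra among the 4, and 0 rose in either, where 12.6% and 13.7% of all genes fell. The list's median was -0.08 in Astro-D2KO mice and -0.15 in control mice. Tbl1xr1, a subunit of the corepressor complex that unliganded receptors recruit, fell by 0.35 in Astro-D2KO mice (limma adjusted p = 0.00263) and by 0.48 in control mice (0.000164). Ncoa1, a coactivator that liganded receptors recruit, fell by 0.32 in Astro-D2KO mice (limma adjusted p = 0.00509) and by 0.31 in control mice (0.00655). Rxrb, a retinoid X receptor, differed by -0.13 in Astro-D2KO mice (limma adjusted p = 0.435) and fell by 0.33 in control mice (0.0247).

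Klf9 passed for SE in both genotypes, and Hr in neither. Klf9 stood at 10.44, 10.17, 10.22 and 10.22 in Astro-D2KO SE mice and 9.88, 9.82, 9.75 and 9.84 in Astro-D2KO saline mice. In control mice it stood at 10.51, 10.55, 10.42 and 10.16 after SE and 10.19, 9.89, 10.07 and 10.09 under saline. The Astro-D2KO groups did not overlap, while in control mice SE replicate 4 lay just below saline replicate 1. Klf9 rose by 0.44 ± 0.093 in Astro-D2KO mice (1.36-fold, limma adjusted p = 0.00273) and by 0.35 ± 0.093 in control mice (1.27-fold, limma adjusted p = 0.0115). Without the 4 arrays with the highest choroid plexus markers the control value was 0.32 and did not pass (limma adjusted p = 0.0885).

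Between genotypes, Klf9 was lower in every Astro-D2KO saline array than in any control saline array, with means of 9.82 ± 0.056 in Astro-D2KO mice and 10.06 ± 0.13 in control mice (SD, n = 4 each). The difference of -0.24 ± 0.093 had rank 357 of 22180 by p and did not pass over all genes (limma adjusted p = 0.999). Neither did the -0.15 after SE (0.860), where the groups overlapped. Averaged over treatments it was -0.19 (95% interval -0.33 to -0.05, limma adjusted p = 0.883), rank 242 of 22180 by p. Hr overlapped in every comparison. It ranged from 6.44 to 6.57 in Astro-D2KO SE mice, 6.32 to 6.62 in Astro-D2KO saline mice, 6.27 to 6.84 in control SE mice and 6.30 to 6.56 in control saline mice, with SE differences of 0.10 in Astro-D2KO mice and 0.09 in control mice that did not pass.

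Among 18 measured genes that T3 is known to induce in brain, 1 rose and 2 fell in Astro-D2KO mice, and 1 rose and 1 fell in control mice. Klf9 was the riser in both. Among all genes 20.1% and 22.1% were called, and a difference of the list from these shares was not tested. Dbp, a clock-controlled transcription factor, fell by 0.96 in Astro-D2KO mice (1.95-fold lower, limma adjusted p = 0.0219) and by 1.18 in control mice (2.27-fold lower, limma adjusted p = 0.00549). Mbp, a myelin protein gene, fell by 0.31 in Astro-D2KO mice (limma adjusted p = 0.0261) and differed by -0.01 in control mice (0.971). Of 7 oligodendrocyte markers, 2 fell in Astro-D2KO mice, Mbp itself and Mag (-0.44), all 7 differences lying between -0.44 and -0.10, and 0 passed in control mice. The mean of the 7 spanned 8.95 to 9.35 in Astro-D2KO SE mice, 9.39 to 9.52 in Astro-D2KO saline mice, 9.33 to 9.71 in control SE mice and 9.45 to 9.62 in control saline mice, and its part in the Mbp value was not tested. The T3 list's median was -0.13 in Astro-D2KO mice and -0.08 in control mice. Of the 6 measured genes known to be lowered by T3, Dio2 included, 2 rose in Astro-D2KO mice, and 2 rose and 1 fell in control mice. Scg2, a granin of secretory vesicles, rose by 1.73 in Astro-D2KO mice (limma adjusted p = 5.75e-06) and by 1.69 in control mice (6.49e-06). Aldh1a3, which makes retinoic acid, rose by 1.42 in Astro-D2KO mice (limma adjusted p = 1.49e-07) and by 1.37 in control mice (2.13e-07). Cirbp, a cold-induced RNA-binding protein gene, fell by 0.33 in control mice (limma adjusted p = 0.0292).

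Several of these genes answer other signals too. Klf9 is known to be raised by glucocorticoids. Of 12 glucocorticoid-induced genes 8 rose and 0 fell in each genotype, where 7.49% of all genes rose in Astro-D2KO mice and 8.42% in control mice. The list's median was 0.89 in Astro-D2KO mice and 0.85 in control mice. Zbtb16, a gene of this list, rose by 0.85 in Astro-D2KO mice (limma adjusted p = 4.01e-05) and by 0.61 in control mice (0.000720). Fkbp5 and Tsc22d3, widely used markers of glucocorticoid action, did not pass, at -0.14 and 0.13 in Astro-D2KO mice and -0.04 and -0.18 in control mice. Dusp1 is on that list and on the immediate early list. All 12 immediate early genes rose in each genotype, with medians of 2.98 in Astro-D2KO mice and 3.06 in control mice. The mean of the glucocorticoid list spanned 8.46 to 8.75 in Astro-D2KO SE mice, 7.54 to 7.75 in Astro-D2KO saline mice, 8.44 to 8.84 in control SE mice (8.74, 8.83, 8.84 and 8.44 for replicates 1 to 4) and 7.54 to 7.95 in control saline mice. The part of either signal in the level of Klf9 was not tested.

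**Figure D4:**
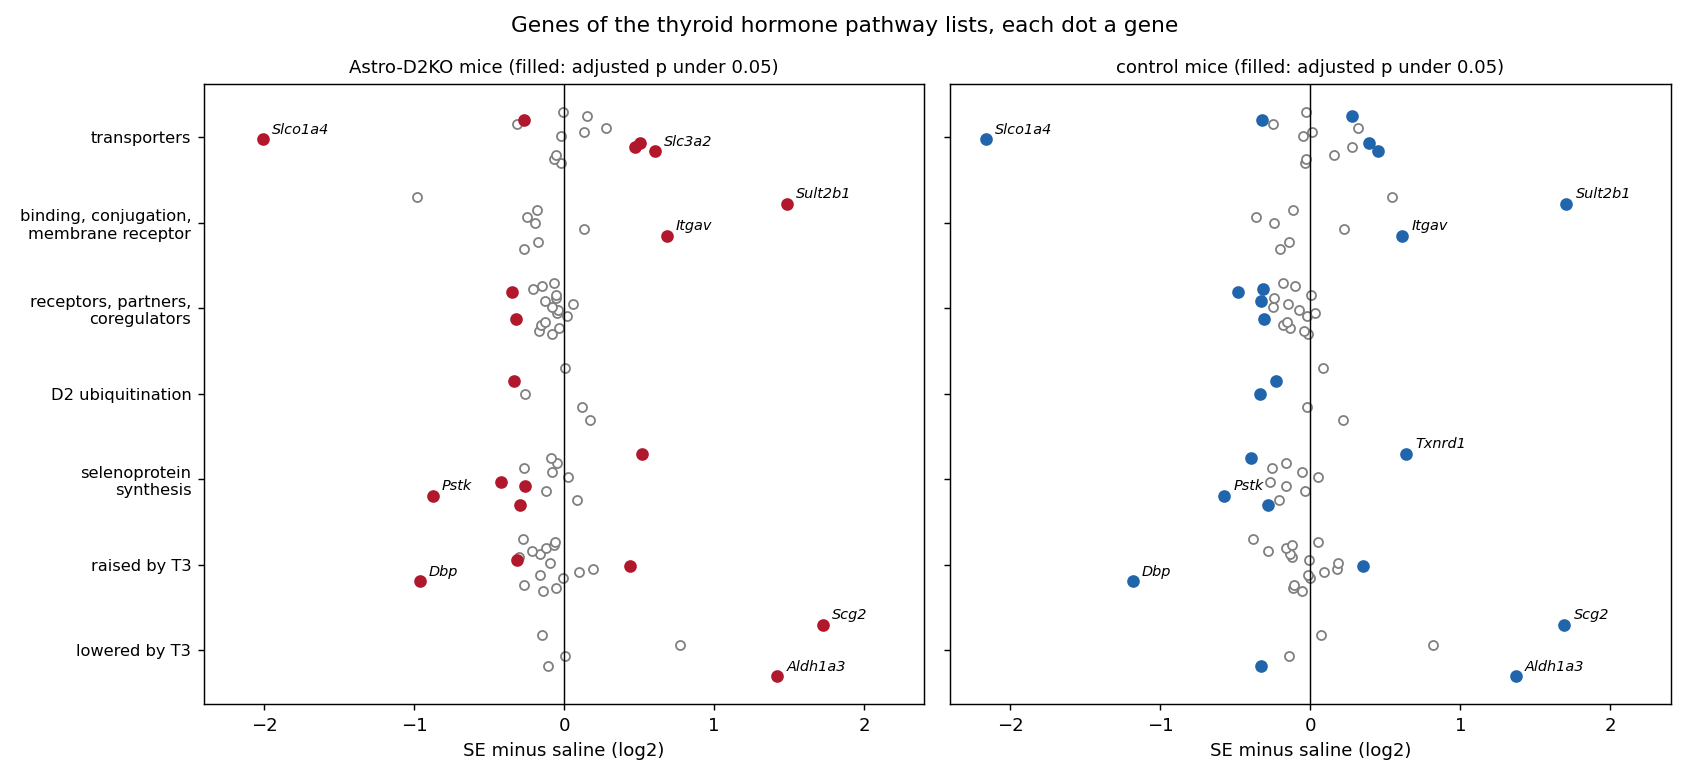
SE minus saline difference (log2, horizontal axis) of each measured gene in 7 lists of the thyroid hormone pathway, members included, in Astro-D2KO mice (left) and control mice (right), with filled dots for genes that passed. Slco1a4 lies at -2.01 in Astro-D2KO mice and -2.16 in control mice, and Sult2b1, Scg2 and Aldh1a3 lie above 1 in both.

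Some genes that handle the hormone or the enzyme outside these steps also passed for SE. Of all genes, 20.1% passed in Astro-D2KO mice and 22.1% in control mice. Of 9 genes for binding, conjugation and the membrane receptor, 2 rose in each genotype. Sult2b1, a sulfotransferase known mainly for sterols, rose by 1.49 in Astro-D2KO mice (limma adjusted p = 2.47e-05) and by 1.71 in control mice (5.44e-06). Itgav, a subunit of the integrin that binds T4 at the cell surface, rose by 0.68 in Astro-D2KO mice (limma adjusted p = 0.0123) and by 0.61 in control mice (0.0215). Type 2 deiodinase is removed by ubiquitination and rescued by the deubiquitinases of Usp20 and Usp33. Among the 5 measured genes of that cycle, Usp33 fell by 0.33 in Astro-D2KO mice (limma adjusted p = 0.00379) and by 0.23 in control mice (0.0333), and Usp20 fell by 0.34 in control mice (0.0151).

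Deiodinases are selenoproteins. Of 12 genes of selenoprotein synthesis or of other selenoproteins, 1 rose and 4 fell in Astro-D2KO mice, and 1 rose and 3 fell in control mice. The riser in both, Txnrd1, is itself a selenoprotein, as is Selenop among those that fell in Astro-D2KO mice. The shares that passed among all genes were 20.1% in Astro-D2KO mice and 22.1% in control mice. Pstk, the kinase that readies the selenocysteine tRNA, fell by 0.88 in Astro-D2KO mice (limma adjusted p = 0.000121) and by 0.57 in control mice (0.00356). Txnrd1, a selenoenzyme of thioredoxin reduction, rose by 0.52 in Astro-D2KO mice (limma adjusted p = 0.00176) and by 0.64 in control mice (0.000269). Eefsec, the elongation factor for selenocysteine, fell by 0.29 in Astro-D2KO mice (limma adjusted p = 0.0140) and by 0.28 in control mice (0.0162). Selenop, a selenium carrier, fell by 0.42 in Astro-D2KO mice (limma adjusted p = 0.0485), and Trnau1ap, a partner of the selenocysteine tRNA, fell by 0.40 in control mice (0.0120).

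None of the 10 members passed for genotype over all genes. In the saline, SE and averaged comparisons of genotype, 0% of the 22180 genes passed, and likewise in the comparison of the SE responses (0%). At an unadjusted p under 0.05 limma had 885 genes under saline, 1358 after SE, 1191 on average and 1031 for the difference in response. Apart from Dio2 and Klf9, the members' genotype differences lay between -0.22 and 0.01 under saline and between -0.11 and 0.12 after SE, with intervals that spanned 0. The largest of these was Thrb under saline, at -0.22 (95% interval -0.46 to 0.02), and -0.12 without control saline replicate 4. None of the 73 other pathway genes passed.

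**Figure D5:**
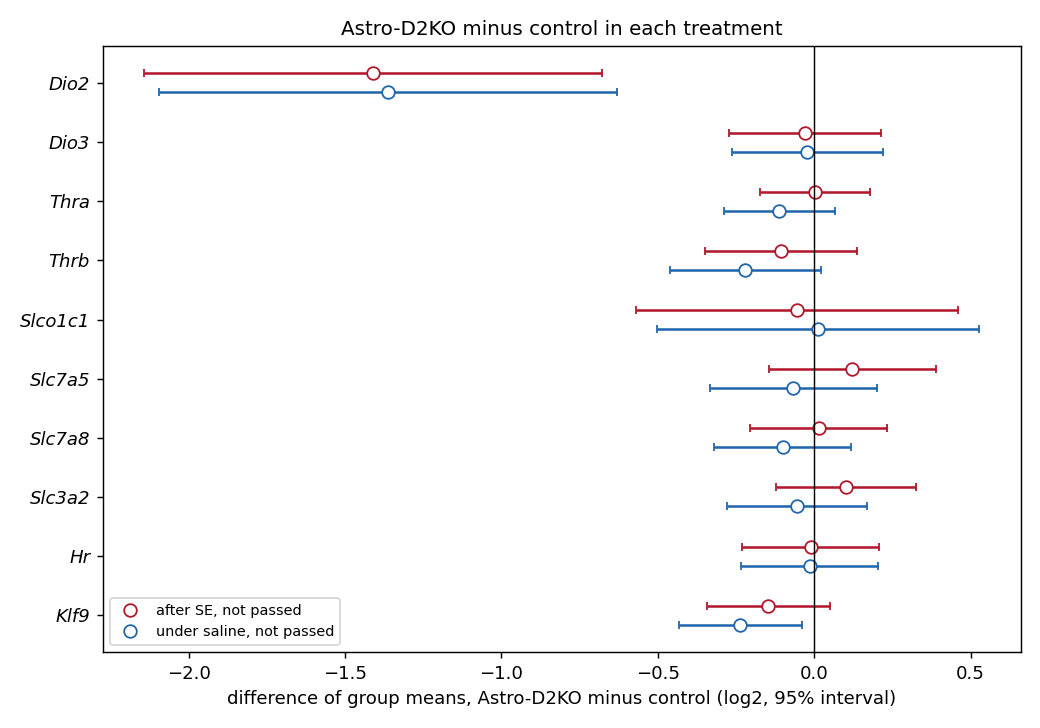
Astro-D2KO minus control difference of each member (log2, horizontal axis) after SE (red, upper of each pair) and under saline (blue), with 95% intervals from limma. Dio2 is at -1.41 after SE and -1.36 under saline, and the other members lie between -0.24 and 0.12.

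The SE responses of the genotypes (Astro-D2KO minus control) differed little for each member, with intervals wide enough to hold sizeable differences. For Dio2 it was -0.05 (95% interval -1.08 to 0.99), and -0.82 without the 2 arrays chosen for their Dio2 levels. For Slc3a2 it was 0.16 (-0.16 to 0.47), for Slc7a8 0.11 (-0.20 to 0.42), and for Klf9 0.09 (-0.19 to 0.37). These intervals do not show that the genotypes responded alike.

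The genes whose pattern over the 16 arrays was most like each member's were found by Pearson correlation, given as a description since the arrays share groups, scaling and dissection. Dio2 was most like Fnip2 (r = 0.88), Mrps21 (0.85), B3gnt2 (0.83), Ahcyl1 (0.83) and Slc25a33 (0.82). With group means taken out the same correlations were 0.84, 0.74, 0.66, 0.77 and 0.59. Thra was most like Hddc3 and Rogdi (0.96 each), and Slc3a2 was most like Sar1a (0.97) and Rnf4 (0.96). Slc7a5 was most like Ms4a6d (0.95) and Hmox1 (0.94), and Slc7a8 was most like Plpp6 and the probe set annotated to Mir382 (0.94 each). Klf9 was most like Cdc37l1 (0.94) and Prok2 (0.93).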

How the data were processed

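Total RNA from 16 mouse hippocampi was measured on Affymetrix arrays. Per the submitters' processing notes the authors used RMA, and the deposited values were read as log2 levels. The log base was inferred from values of 1.70 to 13.79 with array medians of 5.77 to 5.82. Of 41345 probe sets, 23521 had 1 symbol in the platform annotation, 1814 had several and 16010 had none. Entrez IDs of 23328 were found in RefSeq, which changed 0 symbols. The brightest probe set stood for each of 1082 genes with more than 1, which left 22180 genes. Arrays have no read depth, and 4 per group limit the precision. A mean for each group was fitted by limma 3.58.1 (R 4.3.3), with the spread shared by the 4 groups, default eBayes and Benjamini-Hochberg adjustment over all genes within each comparison (two-sided, threshold 0.05). Dio2 was also tested by exact permutation. The fit was tested on simulated data for the comparison of genotypes after SE, with normal noise of 1 SD per gene in all groups. That does not cover groups of unequal spread, which Dio2 had. All members were named, other pathway genes where they passed (at most 4 per list and comparison), and the genes most like Dio2 (5) and like each called member (2). Genes outside that rule were chosen after their values were seen. The members and lists were chosen with earlier results of these data known. Alternatives changed the scaling, a filter on low values, the handling of probe sets, eBayes settings, array weights, the arrays in the fit and a replicate block.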

Additional observations from a re-analysis of the deposited data

Results flagged for a closer look

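In 4 of 44 groups of 4 arrays, 1 array stood apart from the rest by Dixon's test, which chance gives in about 1 group of 20. Dio2 was at 8.91 on the array labelled Astro-D2KO SE replicate 1, against 7.03 to 7.17 in the rest of its group. The dimmer Dio2 probe set was at 5.01 on control saline replicate 1, against 5.35 to 5.39 on the others. The array labelled Astro-D2KO saline replicate 3, the one of that group with the highest choroid plexus markers, was low for Slc7a5 at 8.74, against 9.11 to 9.16, and high for Slc7a8 at 10.52, against 10.39 to 10.40.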

How the results depend on the processing

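Over 27 alternatives (16 that left out 1 array each and 11 others, 1 of them added after the data were seen), 0 called results changed direction, while 25 of 60 member results changed sign with no call. Leaving out 1 array gave 3 to 4 called members for SE in Astro-D2KO mice, 4 to 5 in control mice, 0 to 1 for genotype after SE and on average, and 0 elsewhere. Over all genes it gave 0 to 2 calls for genotype after SE and 0 to 1 on average. The Dio2 difference then ran from -1.86 to -1.23 after SE, -1.61 to -1.29 on average and 0.64 to 1.14 for SE in control mice. Without Astro-D2KO SE replicate 1 and control SE replicate 4, arrays chosen for their Dio2 levels so that the outcome for Dio2 is no test, Dio2 was past the threshold for SE in control mice (1.14), under saline (-1.36), after SE (-2.18) and on average (-1.77), with 1 member called in each of the 3 genotype comparisons, and 1, 5, 2 and, for the difference in response, 1 gene called over all genes. With the saline groups alone, 1 member and 1 gene were called, Dio2 at -1.36. Without the highest choroid plexus array of each group, 2 members passed for SE in control mice, with Slc3a2 at 0.36 (limma adjusted p = 0.0727) and Klf9 at 0.32 (0.0885) no longer called, and 2801 genes passed in Astro-D2KO mice. That fit has fewer arrays. The causes of the other changes were not tested. Averaging the Dio2 probe sets gave 0.25 for SE in control mice, and -0.72 under saline, -0.77 after SE and -0.74 on average for genotype. Centring on medians split the calls into 1849 higher and 2358 lower in Astro-D2KO mice and 2148 and 2510 in control mice, beside 1661 and 2798, and 1867 and 3040. The filter on low values dropped Dio3. The replicate numbers did not pair the samples: 4 of 24 pairs correlated above 0.1 (range -0.29 to 0.34). With the replicate block 4 members passed in each SE comparison, and 4109 genes in Astro-D2KO and 4576 in control mice.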
